A study of Homo sapiens with 18 samples.

Results

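Long intergenic noncoding RNA (lincRNA) genes are transcription units that lie between protein-coding genes and carry no annotated long reading frame. The 2228 genes described here were all GENCODE 29 genes of type lincRNA that reached at least 1 TPM (an abundance per transcript length, out of 1000000 transcripts) in at least 3 of the 18 libraries of HEK293T extracellular vesicles (EVs) and cells, out of 57865 genes. The table held 7388 lincRNA genes, of which 12 were left out by name, 8 of them at this level (MALAT1 and NEAT1 among them), and 5148 others stayed under it. Members were thus chosen by level, and the same level was met by 24647 genes of all types and by 13998 of 19838 protein-coding genes. The members nearest the limit were AC010145.1, AL450345.1 and LINC00276, whose values in the library that decided were 1.00 TPM, 1.01 TPM and 1.01 TPM, and the nearest genes outside were AC023794.5, AC087277.1 and AC073864.1 at 0.999 TPM, 0.999 TPM and 0.998 TPM.

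EVs are membrane-bound particles that cells release with RNA and protein inside. The study asked whether the machinery that couples LC3 to lipid, in which ATG7 is the activating enzyme and ATG12 part of the ligase, sets which RNAs EVs carry. EVs and cells were taken from ATG7-/- clone F2, ATG12-/- clone D9 and wild-type HEK293T, a transformed human embryonic kidney line, all after 24 h without serum, with 3 labelled bioreps in each of the 6 groups. Each knockout was a single clone, so clone and genotype cannot be told apart, and total RNA was read with a stranded kit after 22 cycles of amplification, as single-end reads of 50 bases.

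Most lincRNAs are spliced and polyadenylated like messenger RNA but are less abundant, and many are held in the nucleus, near chromatin. Known examples act by binding proteins, as NORAD does with PUMILIO proteins in the cytoplasm, or on chromatin, as FTX does at the X-inactivation centre. Many others are known only as annotated transcripts, and some of these run against a processed pseudogene or a coding gene.

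The line was recognisable in the libraries. The 11 genes used to describe HEK293 cells (VIM, NEFM, KRT18 and others) summed to 323.9 to 506.7 TPM in EVs and 110.8 to 209.8 TPM in cells, and 12 genes of other cell types to 2.52 to 30.4 TPM in EVs and 9.64 to 36.2 TPM in cells, with HBB, ALB, MYH7, INS and GCG listed at 0 in every cell library. ATG7 lay between 11.2 and 15.6 TPM in ATG7-/- EVs and between 13.3 and 19.4 TPM in wild-type EVs, and between 8.06 and 12.9 TPM in ATG7-/- cells and between 8.14 and 13.1 TPM in wild-type cells. ATG12 lay between 0 and 0.858 TPM in ATG12-/- EVs and between 0.844 and 22.6 TPM in wild-type EVs, and between 5.18 and 9.18 TPM in ATG12-/- cells and between 7.61 and 13.5 TPM in wild-type cells. Gene-level TPM does not read the edited bases, so these values are no check of the genotypes. EV libraries listed fewer genes at 1 TPM or more (13255 to 14716) than cell libraries (18464 to 20509). TPM gives no read number, so depth is unknown, and fewer RNA copies of a gene and fewer particles or cells that hold it cannot be told apart. Which strand setting was used for quantification is not given in the sources used here; where it ran against the kit, a value would measure the opposite strand.

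Of the members, 191 (8.57%) held at least 10% of their 31-base words in a protein-coding transcript on the reverse strand only, 406 (18.2%) on both strands and 113 (5.07%) on the same strand only, and 1518 (68.1%) on neither. Among the other lincRNA genes the 4 shares were 0.988%, 0.194%, 1.80% and 97.0%. The first pair of transcripts below, from GENCODE 29 (GRCh38), shows the reverse-strand kind among the most abundant members, with the bases that match a coding transcript in reverse in capitals. AC112491.1 (chr3:161429112-161429613, plus strand, 2 exons) runs against RPL23AP42, a processed pseudogene of the ribosomal protein gene RPL23A, and AC009137.1 (chr16:68927547-68948261, minus strand, 2 exons) runs against exons of TANGO6.
AC112491.1: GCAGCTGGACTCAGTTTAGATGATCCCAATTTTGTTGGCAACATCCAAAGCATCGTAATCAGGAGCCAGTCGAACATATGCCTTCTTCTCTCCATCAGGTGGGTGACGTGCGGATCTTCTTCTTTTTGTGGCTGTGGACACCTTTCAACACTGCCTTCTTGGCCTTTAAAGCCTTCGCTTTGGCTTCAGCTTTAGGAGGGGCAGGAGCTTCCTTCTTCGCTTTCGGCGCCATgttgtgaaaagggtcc
AC009137.1: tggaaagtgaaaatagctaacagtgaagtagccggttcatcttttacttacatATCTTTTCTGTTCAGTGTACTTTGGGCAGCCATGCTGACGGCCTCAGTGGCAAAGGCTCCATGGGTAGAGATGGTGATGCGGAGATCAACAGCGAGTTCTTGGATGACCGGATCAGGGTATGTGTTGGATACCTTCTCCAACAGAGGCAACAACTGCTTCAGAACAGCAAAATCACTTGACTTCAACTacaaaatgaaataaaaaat
The next transcript belongs to AL390061.1 (chr10:36940109-36943932, plus strand), a member that differed between knockout and wild type, shown to let a reader see what was measured. Capitals mark the bases that match a coding transcript on either strand.
AL390061.1: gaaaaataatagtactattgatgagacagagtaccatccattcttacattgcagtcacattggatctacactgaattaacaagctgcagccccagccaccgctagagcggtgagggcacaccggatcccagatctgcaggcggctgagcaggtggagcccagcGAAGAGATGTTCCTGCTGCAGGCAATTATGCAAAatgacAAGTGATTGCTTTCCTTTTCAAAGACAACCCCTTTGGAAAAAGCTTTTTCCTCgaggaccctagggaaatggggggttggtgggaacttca
NORAD (chr20:36045622-36050960, minus strand) held 15 PUMILIO elements, TGTANATA on the transcript strand, in its 5339 bases, or 2.81 per kilobase. Of 399 leading lincRNA transcripts of at least 3000 bases, 32.1% held at least 1 element and 0.501% as many per kilobase. The first NORAD element began at base 761 and is in capitals below.
NORAD: aaggcctgTGTATATAatatgaaa

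The members took a larger share of the library in the EVs of both knockouts than in wild-type EVs. Their TPM made up 4.43%, 8.26% and 4.84% of the ATG7-/- EV libraries and 7.49%, 6.63% and 5.30% of the ATG12-/- EV libraries, against 3.39%, 2.78% and 3.27% of the wild-type EV libraries. All 6 knockout EV libraries lay above all 3 wild-type EV libraries. In cells the shares were 6.17%, 5.97% and 5.57% for ATG7-/-, 6.60%, 4.96% and 4.67% for ATG12-/-, and 6.15%, 6.81% and 7.90% for wild type, so that ATG7-/- cells and ATG12-/- cells overlapped wild-type cells at the edge of the range. The EV difference rested on a pair of genes with similar sequence. Without FP671120.3 and its near copy FP671120.4 the means were 2.59% ± 0.23 in ATG7-/- EVs, 2.67% ± 0.15 in ATG12-/- EVs and 2.69% ± 0.22 in wild-type EVs (SD, n = 3 each), and the 3 groups overlapped. Without these genes the cells held 5.72% ± 0.34, 4.66% ± 0.21 and 6.28% ± 0.35 in the same order of genotypes, and every EV library lay below every cell library.

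**Figure D1:**
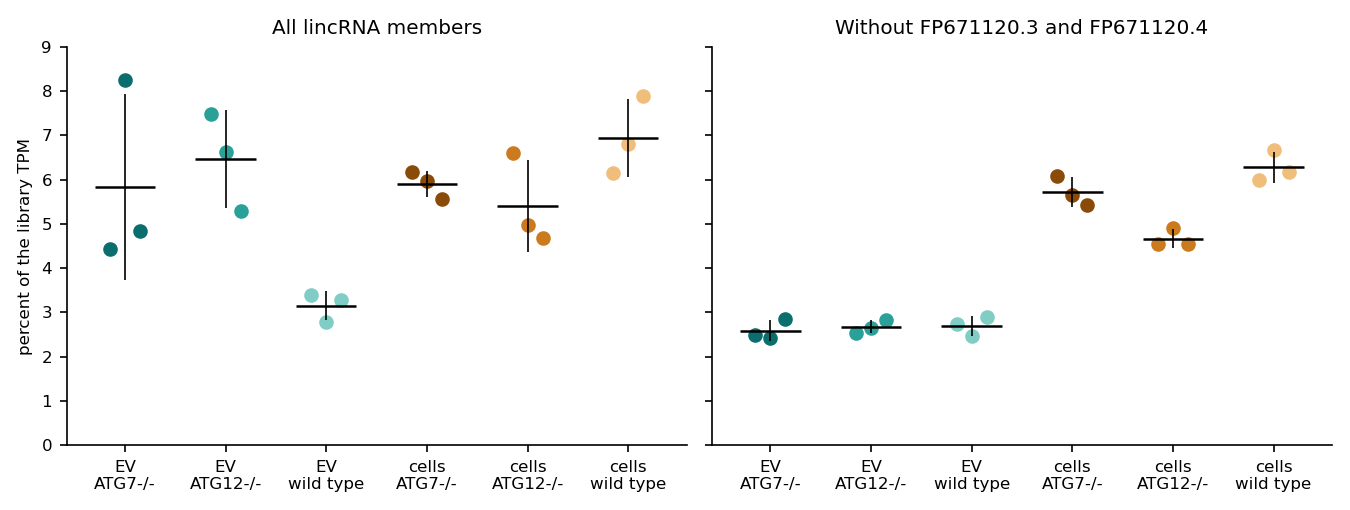
Percent of each library's TPM (y axis) held by the 2228 lincRNA genes, for all of them on the left and without FP671120.3 and FP671120.4 on the right. Each point is 1 library, horizontal lines are group means and vertical lines 1 SD; the EV groups lie at 2.59%, 2.67% and 2.69% on the right, below the cells.

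FP671120.3 (chr21:8210384-8211306, minus strand, 1 exon, 923 bases) lies in a ribosomal DNA repeat, inside the span of FP671120.1 on the opposite strand, and at the place where RefSeq puts the 18S ribosomal RNA gene RNA18SN2. It measured 18096, 57933 and 19834 TPM in ATG7-/- EVs and 47492, 38989 and 24472 TPM in ATG12-/- EVs, against 6052, 3147 and 3855 TPM in wild-type EVs. All knockout EV libraries were higher than all wild-type EV libraries. The log2 difference from wild-type EVs was 2.81 ± 0.46 (SE; limma adjusted p = 0.0668) in ATG7-/- EVs and 3.16 ± 0.46 (adjusted p = 0.0471) in ATG12-/- EVs, so only the second passed, and it was lost under 10 of 13 alternatives, with adjusted p up to 0.380. In cells it measured 764, 2984 and 1368 TPM for ATG7-/-, 19948, 549 and 1336 TPM for ATG12-/-, and 1523, 1341 and 16526 TPM for wild type. A single library of ATG12-/- cells and a single library of wild-type cells were thus far above the others. FP671120.4 shares 93.2% of the 31-base words of FP671120.3, so the values of these genes cannot be told apart, and how ribosomal RNA removal bears on them was not tested.

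A few members held most of the signal. The 10 highest members of each group made up 75.8% of the members' TPM in ATG7-/- EVs, 77.2% in ATG12-/- EVs, 54.0% in wild-type EVs, and 62.9%, 61.4% and 62.9% in ATG7-/-, ATG12-/- and wild-type cells. At the other end, 701, 843 and 781 members were listed at 0 in all 3 EV libraries of ATG7-/-, ATG12-/- and wild type, against 111, 97 and 66 in cells. The number at 1 TPM or more in all 3 libraries was 358, 313 and 341 in the EV groups and 1045, 1055 and 1248 in the cell groups. In all, 992 members reached 1 TPM in at least 3 EV and at least 3 cell libraries, 1042 did so in cells alone, 46 in EVs alone and 148 in neither alone. Of all members, 171 reached it in every library. The median of the members' means over 18 libraries was 1.99 TPM, and 43 members averaged 100 TPM or more.

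AC112491.1, whose transcript is printed above, was the most abundant member in cells. It measured 6155, 5793 and 9416 TPM in ATG7-/- EVs, 5978, 7147 and 7689 TPM in ATG12-/- EVs and 7117, 6163 and 7769 TPM in wild-type EVs, against 27666, 24688 and 22922 TPM, 11076, 14674 and 13744 TPM, and 19766, 34179 and 23224 TPM in cells of the same genotypes. Every EV library was below every cell library, and the EV groups overlapped one another. The log2 difference between EVs and cells was -2.07 ± 0.21 in ATG7-/- (limma adjusted p = 1.46e-05), -1.06 ± 0.21 in ATG12-/- (adjusted p = 0.00525) and -2.34 ± 0.21 in wild type (adjusted p = 3.08e-06). The coding gene whose sequence it runs against, RPL23A of the large ribosomal subunit, averaged 29.5 ± 14.6 TPM in EVs and 14.0 ± 4.0 TPM in cells (SD, n = 9 libraries each).

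For 59 of the 2228 members at least 50% of a member's 31-base words were the reverse of 1 coding gene's transcript. The member was above the coding gene in mean EV TPM in 36 of these pairs and in mean cell TPM in 42. The member was higher in all 18 libraries in 14 pairs and the coding gene in all 18 in 5. The median over the pairs was 8.57 TPM for the members and 8.32 TPM for the coding genes in EVs, and 11.8 TPM and 5.34 TPM in cells. For AC021224.1 and HNRNPA1, a nuclear RNA-binding protein gene, the EV means were 1081 TPM and 39.7 TPM and the cell means 797 TPM and 11.8 TPM. For AL355075.3 and PNP, the purine nucleoside phosphorylase gene on the other strand of the same place, they were 668 TPM and 12.4 TPM in EVs and 575 TPM and 7.18 TPM in cells. For AL136038.2 and WDR89 they were 168 TPM and 1.17 TPM in EVs and 239 TPM and 0.654 TPM in cells. These 3 pairs are from the 14 in which the member was higher in every library. Among the 5 pairs that went the other way, AC137630.4 and ARIH2 averaged 0 TPM and 100 TPM in EVs and 1.47 TPM and 56.5 TPM in cells. AL136038.2 and AC137630.4 were named after their values were seen. Whether the members' values in such pairs are RNA of the member's strand or of the coding strand was not tested.

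EVs held less of most lincRNA genes than cells did in each genotype. Each of the 3 EV-to-cell comparisons used all 2228 members, and a member that met the level only in cells had to differ. In ATG7-/-, 322 of 2228 members passed an adjusted p under 0.05 (limma, Benjamini-Hochberg over 24647 genes), or 14.5% against 11.4% of all genes. Of these, 21 were higher (0.943% against 2.71% of all genes) and 301 lower (13.5% against 8.69%). In ATG12-/-, 288 members passed, or 12.9% against 11.2%, with 19 higher (0.853% against 2.27%) and 269 lower (12.1% against 8.9%). In wild type, 722 passed, or 32.4% against 24.7%, with 19 higher (0.853% against 4.03%) and 703 lower (31.6% against 20.7%).

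The median log2 difference between EVs and cells was -0.87 over the members and -0.48 over all genes in ATG7-/-, -0.80 and -0.54 in ATG12-/-, and -1.22 and -0.75 in wild type. These are differences on the log2(TPM + 1) scale after each library was scaled to a common median ratio, which understates the change of low genes. Without scaling, the all-gene medians were -0.37, -0.49 and -0.48 and the member medians -0.79, -0.78 and -1.02, so the members lay lower than all genes either way. Over the 992 members at the level in both EVs and cells the medians were -0.97, -0.88 and -1.36, beside -0.32, -0.39 and -0.50 over the 15893 genes of all types with that property. Of these members 15.5%, 14.7% and 32.6% passed in ATG7-/-, ATG12-/- and wild type, beside 10.8%, 10.6% and 21.3% of those genes. Among members called lower, 109 of 301 (36.2%), 138 of 269 (51.3%) and 313 of 703 (44.5%) were listed at 0 in all 3 EV libraries of ATG7-/-, ATG12-/- and wild type, and 50, 50 and 86 still had at least 1 TPM in each EV library. Called lower in all 3 genotypes were 117 members. The 223 members lower in both ATG7-/- and wild type were 74.1% of the ATG7-/- calls and 31.7% of the wild-type calls, and over all genes the 1478 shared were 69.03% and 29.03%. Over all genes, 824 were lower in all 3 genotypes.

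**Figure D2:**
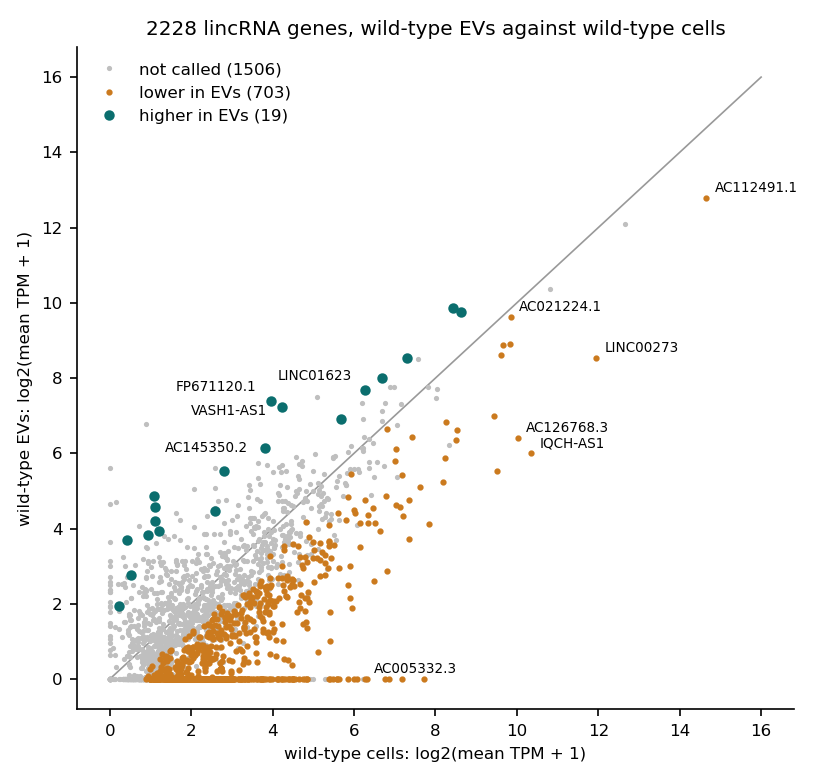
Mean level of each of the 2228 lincRNA genes in wild-type EVs (y axis) against wild-type cells (x axis), both log2(mean TPM + 1), with the line of equal levels. The 19 genes higher in EVs lie above the line and the 703 lower genes below it, many of them on the floor at 0 in EVs.

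LINC00273, a single-exon gene on chromosome 16 (34158585 to 34160036, minus strand), was among the 10 named members furthest below their cells in ATG12-/-, though not in ATG7-/- or wild type. It measured 259, 264 and 219.7 TPM in ATG7-/- EVs against 4169, 4954 and 4882 TPM in ATG7-/- cells. It measured 200.3, 171 and 187 TPM in ATG12-/- EVs against 6532, 6767 and 5917 TPM in ATG12-/- cells. It measured 425, 338 and 345 TPM in wild-type EVs against 4199, 3323 and 4299 TPM in wild-type cells. EVs and cells were far apart in every genotype, with log2 differences of -4.46 ± 0.15 in ATG7-/- (limma adjusted p = 2.40e-10), -5.24 ± 0.15 in ATG12-/- (adjusted p = 2.18e-11) and -3.91 ± 0.15 in wild type (adjusted p = 5.54e-10).

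AC126768.3 (chromosome 5) was also lower in EVs in each genotype. It measured 70.5, 90.2 and 76.5 TPM in ATG7-/- EVs, 104, 137 and 161 TPM in ATG12-/- EVs and 67.4, 116 and 66.0 TPM in wild-type EVs. In cells it measured 526, 449.6 and 559 TPM in ATG7-/-, 691, 631 and 571 TPM in ATG12-/- and 1205, 937 and 968 TPM in wild type, all above every EV library. The log2 differences were -2.90 ± 0.25, -2.39 ± 0.25 and -4.16 ± 0.25 (limma adjusted p = 2.67e-06, 2.23e-05 and 5.75e-08). AC005332.3 (chromosome 17) was listed at 0 in all 9 EV libraries. Its cells held 115, 26.2 and 41.7 TPM in ATG7-/-, 33.3, 24.4 and 27.3 TPM in ATG12-/- and 72.5, 69.6 and 87.0 TPM in wild type (limma adjusted p = 1.04e-06, 6.96e-06 and 2.36e-07). AC005332.3 met the level through the cells alone, so it had to differ, and its calls are no support for a difference. IQCH-AS1 showed how a low EV mean can hide an uneven group: its EV libraries ranged from 0 through a median of 1.95 to 274 TPM and its cell libraries from 306 through 667 to 1511 TPM, and it passed in ATG12-/- (adjusted p = 0.0079) and wild type (adjusted p = 0.0101) but not in ATG7-/- (adjusted p = 0.132).

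Only 9 members were higher in EVs in all 3 genotypes, out of 21, 19 and 19 called higher in ATG7-/-, ATG12-/- and wild type. They were VASH1-AS1, FP671120.1, LINC01623, LINC01709, LINC00638, AC145350.2, AC020909.2, AC026785.2 and AC020658.2, the last 2 named after their values were seen. VASH1-AS1, which runs against the angiogenesis inhibitor gene VASH1 on chromosome 14, measured 296, 283 and 305 TPM in ATG7-/- EVs, 237, 227 and 243 TPM in ATG12-/- EVs and 123, 162 and 161 TPM in wild-type EVs. In cells it measured 31.3, 18.6 and 26.0 TPM in ATG7-/-, 11.9, 12.3 and 11.1 TPM in ATG12-/- and 17.3, 18.9 and 17.2 TPM in wild type, so EVs and cells did not overlap. Its log2 differences were 3.30 ± 0.25, 4.07 ± 0.25 and 2.49 ± 0.25 (limma adjusted p = 8.41e-07, 9.87e-08 and 1.06e-05). VASH1 itself averaged 39.2 ± 9.5 TPM in EVs and 3.95 ± 1.15 TPM in cells (SD, n = 9 each), so the mean of both strands of the locus was higher in EVs.

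FP671120.1, whose span covers a ribosomal RNA repeat on its own strand, measured 109, 98.3 and 132 TPM in ATG7-/- EVs, 201, 232 and 255 TPM in ATG12-/- EVs and 139, 159.7 and 200.1 TPM in wild-type EVs, against 11.1 to 23.3 TPM in the 9 cell libraries. No EV library came near a cell library. The log2 differences were 2.43 ± 0.29 in ATG7-/- (limma adjusted p = 9.27e-05), 3.97 ± 0.29 in ATG12-/- (adjusted p = 5.90e-07) and 2.93 ± 0.29 in wild type (adjusted p = 9.56e-06). LINC01623 (chromosome 6) measured 392, 339 and 413 TPM in ATG7-/- EVs, 374, 386 and 353 TPM in ATG12-/- EVs and 159.9, 236 and 215 TPM in wild-type EVs, against 68.0 to 98.1 TPM in cells. Its EVs were above its cells throughout, and its wild-type EVs were the lowest of the EV groups; the log2 differences were 2.09 ± 0.20, 1.82 ± 0.20 and 0.88 ± 0.20 (adjusted p = 1.03e-05, 4.16e-05 and 0.00585). LINC00638 was the example at low level, with 4.34 to 9.56 TPM in EVs and 0.234 to 0.620 TPM in cells.

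**Figure D3:**
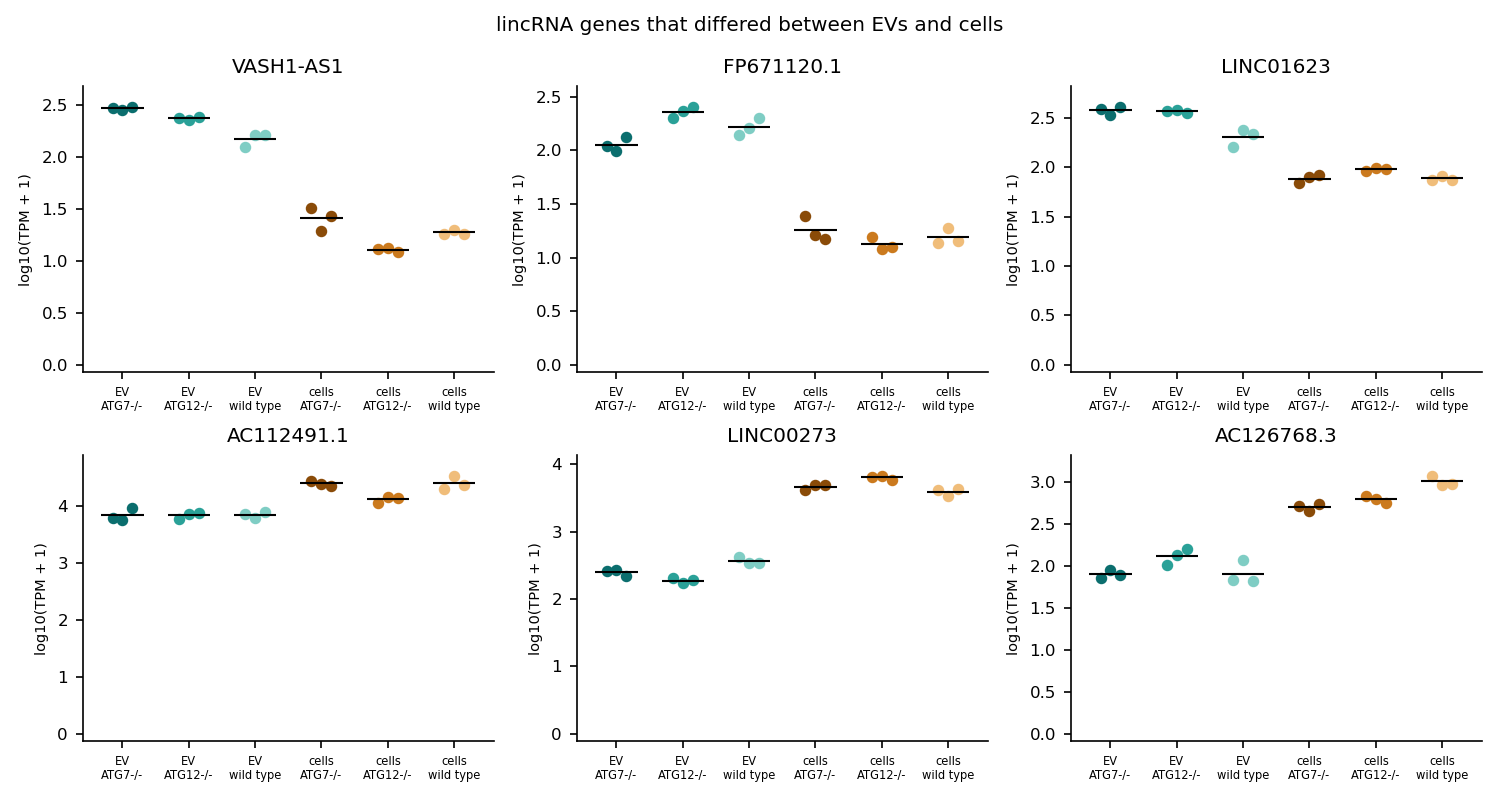
Level of 6 lincRNA genes in each library as log10(TPM + 1) (y axis) by group (x axis), each point 1 library and each line a group mean. VASH1-AS1, FP671120.1 and LINC01623 sit higher in all 9 EV libraries than in all 9 cell libraries, and AC112491.1, LINC00273 and AC126768.3 lower.

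Many members called higher in EVs lay against another gene. An exon on the opposite strand was annotated for 10 of the 21 members higher in ATG7-/- (47.6%), 13 of 19 in ATG12-/- (68.4%) and 11 of 19 in wild type (57.9%). The shares among members called lower were 19.6%, 18.6% and 16.4%, and 463 of all members (20.8%) had such an exon, as did 30 of the 50 most abundant. At least 10% of the words were reversed coding words in 6 of 21, 5 of 19 and 8 of 19 members called higher in ATG7-/-, ATG12-/- and wild type, and in 98 of 301, 106 of 269 and 207 of 703 called lower. In the 3 examples that follow, chosen after their values were seen, the coding gene's own mean was higher in EVs too. LINC01623 runs against RPL13P, a processed pseudogene of the ribosomal protein gene RPL13, and RPL13 averaged 436 ± 99 TPM in EVs and 74.4 ± 26.3 TPM in cells. LINC01709, at 335 to 659.6 TPM in EVs and 133 to 221 TPM in cells, runs against RPSAP19, and RPSA, the ribosomal protein gene it derives from, averaged 295 ± 61 TPM in EVs and 41.1 ± 17.4 TPM in cells. AC026785.2, at 105 to 302 TPM in EVs and 47.9 to 66.9 TPM in cells, holds 18.4% of its words reversed in the ferritin heavy chain gene FTH1, which averaged 146 ± 48 TPM in EVs and 30.1 ± 8.9 TPM in cells (SD, n = 9 each). The part of these stretches in the members' values was not tested.

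The members were also grouped by the sequence they share with coding transcripts. In wild type the median log2 difference was -1.02 over the reverse-strand-only members, -1.89 over those with words on both strands, -1.23 over those with same-strand words and -1.12 over those with neither. The members with neither gave 45.5% of the members' TPM and 16 of the 50 most abundant, and those with reverse-strand words only gave 37.4% and 17. The 69 members whose leading transcript is under 300 bases had a median of -2.38 in wild type, and the 722 of at least 1200 bases a median of -1.13. By name, 1497 members (67.2%) carry only a clone name, 472 a LINC number and 259 another symbol. RefSeq promoter windows (250 bases before to 50 after the start, GRCh38.p14) matched 445 members, of which 0.899% held TATAAA on the gene's strand between 50 and 11 bases upstream, beside 3.80% of 15843 protein-coding windows and 2.81% of all 27305 windows. The ratio of observed to expected CpG was at least 0.6 in 34.2% of the members' windows, in 65.8% of the coding windows and in 49.0% of all windows.

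At similar levels the median difference of the members lay below that of coding genes. In wild type the median log2 difference was -0.97 for members and -0.43 for protein-coding genes under 2 TPM, -1.61 and -0.36 from 2 to 5 TPM, -1.92 and -0.17 from 5 to 20 TPM, and -1.47 and 0.16 at 20 TPM or more. The members lay below the coding genes in each of these bins and in the same bins of both knockouts. Genes of the antisense type had medians of -1.11, -1.71, -1.73 and -0.73 in wild type over the same bins, and processed pseudogenes -1.12, -1.96, -2.16 and -2.32, so antisense genes lay near the members up to 20 TPM and above them from there, and processed pseudogenes lay below the members in each bin. Across the 2228 members the wild-type difference and the log2 mean TPM were negatively correlated (Pearson r = -0.28, Spearman rho = -0.34), a description over genes that share the same 18 libraries and are not independent. The mean level also includes the wild-type values that make the difference, and many members met the level in cells alone. The sign may thus be partly built in.

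**Figure D4:**
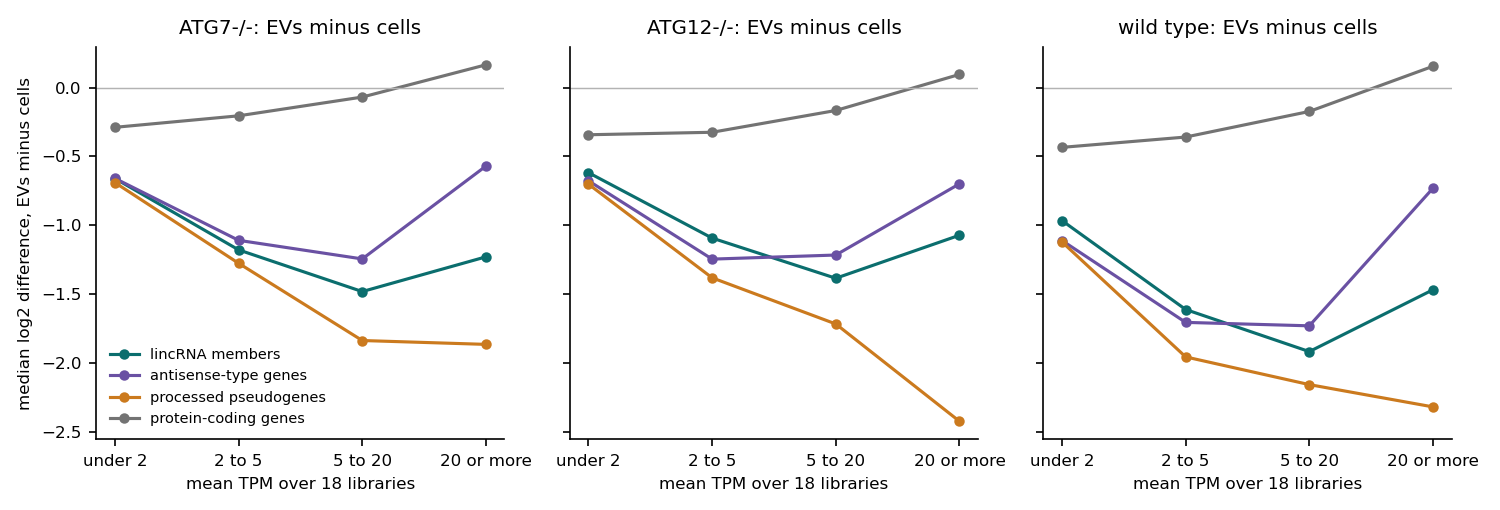
Median log2 difference, EVs minus cells (y axis), by mean TPM over the 18 libraries (x axis) for lincRNA members, antisense-type genes, processed pseudogenes and protein-coding genes, with a panel for each genotype. The members lie below the coding genes at each level, for example at -1.47 against 0.16 at 20 TPM or more in wild type.

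Most members with a described role were not called. As background, 8.69%, 8.9% and 20.7% of all genes were lower in EVs in ATG7-/-, ATG12-/- and wild type and 2.71%, 2.27% and 4.03% higher. The lists were written with earlier results of these data known and carry no test of their own; the median of all genes is the background given above. Of 19 genes listed as cytoplasmic regulators, 10 were members: 2 were lower in EVs in ATG7-/-, 3 in ATG12-/- and 5 in wild type, none was higher, and the list's medians were -0.85, -0.74 and -1.44. LINC-PINT, described below, is on this list and also on the nuclear and p53 lists. Its lower calls are counted in each, so the counts of these lists are not separate. LINC00665 averaged 6.26 ± 1.76, 3.48 ± 1.56 and 7.16 ± 2.00 TPM in ATG7-/-, ATG12-/- and wild-type EVs, against 22.4 ± 2.3, 15.4 ± 2.9 and 25.6 ± 8.7 TPM in the cells (SD, n = 3). It was lower in EVs in all 3 genotypes (log2 -1.92, -2.02 and -2.14; limma adjusted p = 0.00508, 0.00394 and 0.00125). UCA1, first described in bladder cancer, passed in wild type, with 0.376 ± 0.326 TPM in EVs and 9.46 ± 3.30 TPM in cells (log2 -3.19, adjusted p = 0.00705). It did not pass in ATG7-/-, with 5.75 ± 1.28 TPM in EVs and 3.98 ± 1.19 TPM in cells (adjusted p = 0.861). NORAD measured 3.27 to 9.37 TPM in EVs and 1.92 to 4.25 TPM in cells, with log2 differences of 0.34, 0.37 and 0.77, and passed in no genotype (adjusted p = 0.577, 0.544 and 0.138).

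Of 27 nuclear regulators, 11 were members, of which 1 was higher and 1 lower in EVs in each knockout and 2 lower in wild type. FTX measured 305, 299 and 337 TPM in ATG7-/- EVs against 88.4, 89.0 and 81.7 TPM in ATG7-/- cells, and 316, 302 and 323 TPM in ATG12-/- EVs against 99.9, 105 and 90.2 TPM in ATG12-/- cells. In wild type it measured 210.5, 233 and 202 TPM in EVs against 115, 114 and 121 TPM in cells. EVs were above cells in each genotype, and the log2 difference was 1.62 ± 0.18 in ATG7-/- (limma adjusted p = 4.20e-05), 1.53 ± 0.18 in ATG12-/- (adjusted p = 7.97e-05) and 0.38 ± 0.18 in wild type (adjusted p = 0.135). LINC-PINT, a p53-induced transcript, was lower in EVs in all 3 genotypes, at 0.155 ± 0.191, 0.187 ± 0.271 and 0.332 ± 0.311 TPM in EVs against 4.27 ± 1.41, 2.47 ± 1.46 and 5.58 ± 2.26 TPM in cells (limma adjusted p = 0.00292, 0.0318 and 0.000657). LINC-PINT met the level through the cells alone, so it had to differ, and its calls are no support for a difference. LINC00467 passed in wild type (log2 -2.45, adjusted p = 0.00471). PVT1, JPX, CRNDE and MIAT passed in none.

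The p53, stress and growth list had 8 members of 16, with 1 lower in each knockout (LINC-PINT) and 2 lower in wild type. PANDAR, a DNA damage-induced transcript from the CDKN1A promoter region, averaged 48.9 ± 11.7 TPM in EVs and 29.8 ± 6.7 TPM in cells (SD, n = 9 each) and did not pass (adjusted p = 0.151, 0.420 and 0.710), nor did TP53TG1. The pluripotency and development list had 7 members of 16, of which LINC00458 was lower in ATG7-/- and wild type, listed at 0 in the EVs of both (limma adjusted p = 0.00401 and 0.0432). With these EVs at 0, its calls rest on the cell values, through which it may have met the level. They are thus no support for a difference. Of 17 genes listed as annotated noncoding but encoding microproteins, 3 were members. LINC02381 was higher in ATG7-/- EVs, at 27.6, 26.7 and 19.8 TPM against 6.16, 5.88 and 6.71 TPM in ATG7-/- cells (log2 1.60 ± 0.47, adjusted p = 0.0388), and LINC00346 was lower in wild type (log2 -1.48, adjusted p = 0.00486). Of 63 microRNA host genes 24 were members, with 2, 1 and 5 lower in ATG7-/-, ATG12-/- and wild type and none higher. MIR194-2HG was lower in all 3 genotypes (adjusted p = 0.00663, 0.0112 and 0.00854). In the knockout comparisons below, no member of these lists passed.

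Few lincRNA genes passed between knockout and wild-type EVs. The median SE of the members' log2 differences was 0.863 in both comparisons, so smaller differences could go uncalled. The comparisons of both knockouts share the 3 wild-type libraries and are given side by side. Of the members, 1038 passed the level filter within the 9 EV libraries. In ATG7-/- EVs against wild-type EVs, 3 passed, 2 higher and 1 lower, which is 0.289% beside 0.141% of all 17076 genes tested; 81 members (7.80%) had an unadjusted p under 0.05, beside 7.41% of all genes. In ATG12-/- EVs against wild-type EVs, 2 passed, both higher (0.193% beside 0.105%), and 90 (8.67%) had an unadjusted p under 0.05, beside 7.94%. The member medians were -0.04 and -0.02, beside 0.00 and -0.08 for all genes.

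AL390763.1 (chromosome 10) was higher in ATG7-/- EVs, with 37.8, 36.9 and 32.7 TPM; ATG12-/- EVs held 14.1, 5.0 and 35.1 TPM, and wild-type EVs listed it at 0 in all 3 libraries (limma adjusted p = 0.0313 for ATG7-/- and 0.118 for ATG12-/-). Its cells held 18, 50.5 and 33.2 TPM in ATG7-/-, 25.9, 15.9 and 14.9 TPM in ATG12-/- and 71.2, 29.3 and 21.7 TPM in wild type, which overlapped. Only the wild-type EVs therefore stood apart. AC005899.6 had 29.5, 12.5 and 9.93 TPM in ATG7-/- EVs and was listed at 0 in the other 6 EV libraries. It met the level filter through the ATG7-/- EVs alone, so it had to differ, and its call is no support for a difference. AC009229.2 went the other way, at 0 in all ATG7-/- EVs, with 3.59, 0 and 0 TPM in ATG12-/- EVs and 50.1, 25.0 and 79.4 TPM in wild-type EVs (limma adjusted p = 0.0418 for ATG7-/- and 0.0942 for ATG12-/-). It met the filter only with the wild-type EVs, where it is high, so it had to differ, and its call is no support for a difference. AL390061.1, whose transcript is printed above, measured 23.7, 88.3 and 36.3 TPM in ATG12-/- EVs and was listed at 0 in ATG7-/- and wild-type EVs. It met the filter through the ATG12-/- EVs alone, and the same holds for its call. Each of these 4 was at 0 in every library of a group, so no fold change is given, and each lost its call when any of the 3 wild-type EV libraries was left out, with adjusted p reaching 0.176, 0.188, 0.195 and 0.144 over the alternatives tried.

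In cells, 2034 members were tested. In ATG7-/- cells against wild-type cells 1 passed (0.0492% beside 0.2% of 22471 genes), and 287 members (14.1%) had an unadjusted p under 0.05, beside 14.4% of all genes. In ATG12-/- cells 0 passed by limma, beside 0.134% of all genes, with a smallest adjusted p of 0.0587; 309 members (15.2%) had an unadjusted p under 0.05, beside 15% of all genes. The member medians were -0.26 in ATG7-/- cells and -0.31 in ATG12-/- cells, beside -0.07 for all genes in both. The called gene, AC017002.3, lies against MIR4435-2HG on chromosome 2 and measured 21.7, 27.4 and 42.1 TPM in ATG7-/- cells and 0.615, 0 and 0 TPM in ATG12-/- cells, against 2.81, 1.49 and 2.84 TPM in wild-type cells. The ATG7-/- cells stood above both other groups, with a log2 difference of 3.25 ± 0.34 from wild type (limma adjusted p = 0.0124). The call was lost when any of the 3 wild-type cell libraries was left out, with adjusted p up to 0.103 over the alternatives. MIR4435-2HG measured 34.0, 41.4 and 33.1 TPM in ATG7-/- cells and 20.1, 27.0 and 25.0 TPM in wild-type cells and did not pass (adjusted p = 0.240).

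Few members passed for a difference between EVs and cells unlike that of wild type. The test was the interaction in the fit of all 18 libraries. For ATG7-/- 9 of 2228 passed (0.404% beside 0.284% of all genes), 4 with a higher and 5 with a lower difference than wild type. For ATG12-/- 7 passed (0.314% beside 0.268%), 4 higher and 3 lower. Among these, AL359382.1, AL353801.1, AC008736.1 and AC006115.1 were members only through the cell groups where they are high, so that they had to differ, and their calls are no support. The member medians were 0.35 and 0.42, beside 0.22 and 0.19 for all genes; without scaling they were 0.21 and 0.22, beside 0.06 and -0.04.

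AL355075.3, the transcript opposite PNP, measured 503, 463 and 428 TPM in ATG7-/- EVs and 599.8, 591 and 621 TPM in ATG12-/- EVs, against 837, 969 and 999.8 TPM in wild-type EVs. In cells it measured 421, 734 and 586 TPM in ATG7-/- and 764, 796 and 842 TPM in ATG12-/-, against 349.5, 327 and 353 TPM in wild type. Knockout EVs were below and knockout cells above wild type without overlap, and the interaction was -1.45 ± 0.24 in ATG7-/- (limma adjusted p = 0.0163) and -1.49 ± 0.24 in ATG12-/- (adjusted p = 0.0146). AC021224.1, which runs against a pseudogene of HNRNPA1, went the other way, with 1215, 1191 and 1323 TPM in ATG7-/- EVs and 1304, 1195 and 1151 TPM in ATG12-/- EVs, against 736, 750.2 and 864 TPM in wild-type EVs. Its cells held 721, 666 and 615 TPM in ATG7-/- and 835, 836 and 729.9 TPM in ATG12-/-, against 736, 1006 and 1025 TPM in wild type. Knockout EVs were above wild-type EVs, ATG7-/- cells were below wild-type cells and ATG12-/- cells overlapped them; the interaction was 1.40 ± 0.23 (adjusted p = 0.0163) and 1.19 ± 0.23 (adjusted p = 0.0492). AL355075.3 lost both calls with sample weights and without wild-type cell replicate 2 or 3, and its ATG7-/- call without ATG7-/- cell replicate 3 (adjusted p up to 0.269 and 0.310 over all alternatives). AC021224.1 lost its ATG7-/- call with sample weights and without those same libraries (up to 0.258) and its ATG12-/- call under 14 of 19 alternatives (up to 0.398). Without scaling AC021224.1 lost both calls, and neither gene passed between knockout and wild-type EVs alone or cells alone. LINC00273, described above, had an interaction of -1.33 ± 0.21 in ATG12-/- (adjusted p = 0.0135) and -0.55 ± 0.21 in ATG7-/- (adjusted p = 0.447); the first call was lost with sample weights (adjusted p = 0.320) and without wild-type cell replicate 2. FTX, which passed between EVs and cells in the knockouts and not in wild type, did not pass this test (adjusted p = 0.0581 and 0.0984).

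**Figure D5:**
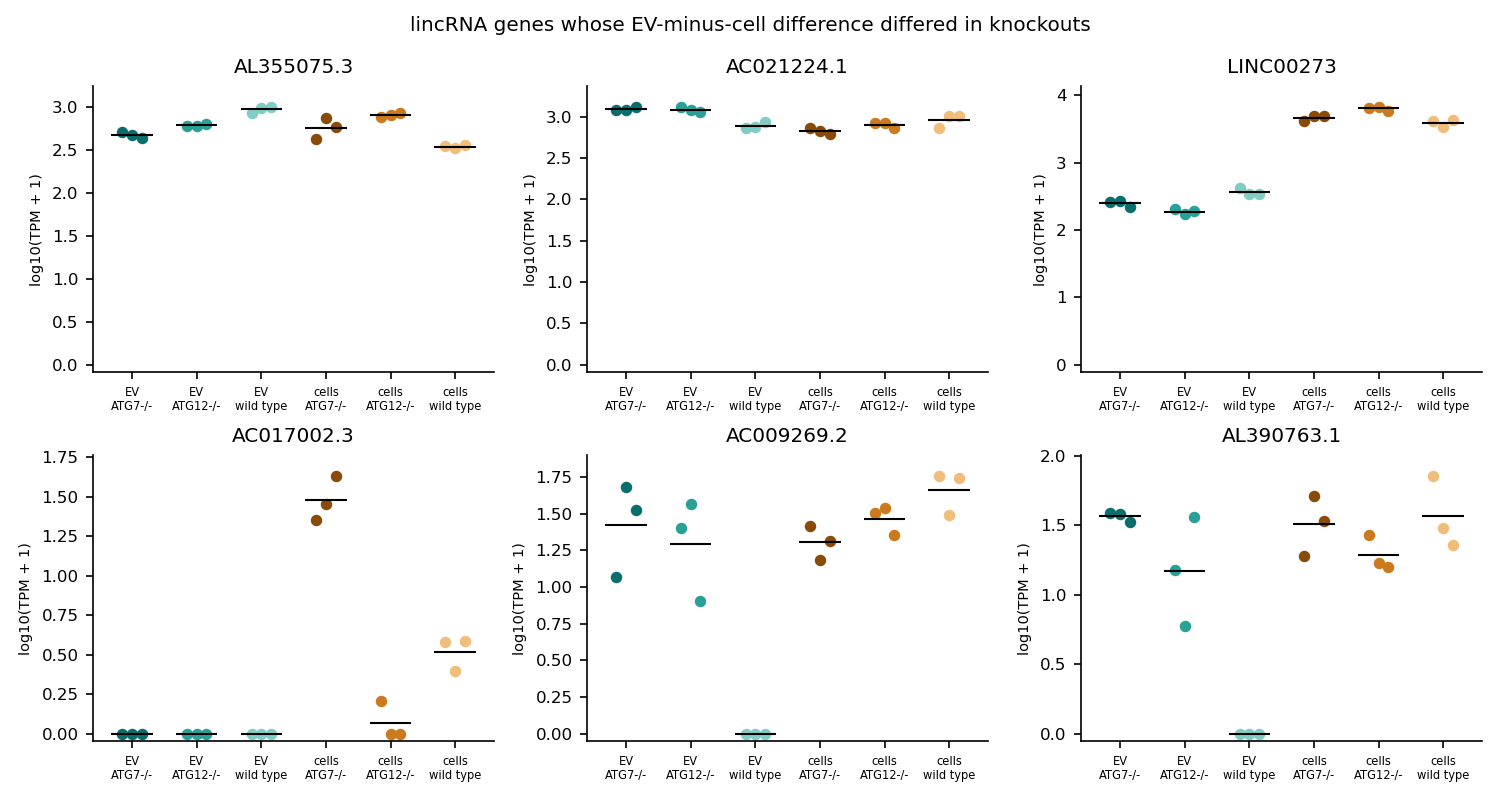
Level of 6 lincRNA genes as log10(TPM + 1) (y axis) by group (x axis), each point 1 library and each line a group mean. AL355075.3 is lower in knockout EVs and higher in knockout cells than in wild type, and AC009269.2 and AL390763.1 are at 0 in all 3 wild-type EV libraries and above 0 in all other libraries.

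AC009269.2 (chromosome 15) resembled AL390763.1. It measured 10.6, 47.3 and 32.3 TPM in ATG7-/- EVs and 24.1, 35.5 and 7.08 TPM in ATG12-/- EVs, and was listed at 0 in the 3 wild-type EV libraries. Its cells held 24.9, 14.2 and 19.7 TPM in ATG7-/- and 30.7, 33.7 and 21.8 TPM in ATG12-/-, against 56.4, 29.8 and 54.2 TPM in wild type. The interaction passed in both knockouts (limma adjusted p = 0.00404 and 0.0146) and the EV comparison in neither (adjusted p = 0.0768 and 0.127). The ATG12-/- call was lost without wild-type cell replicate 1 or 3 or ATG12-/- cell replicate 3, with adjusted p up to 0.0605. For AL390763.1 the interaction also passed in both (adjusted p = 0.00803 and 0.0148), and the ATG12-/- call was lost with sample weights and without wild-type cell replicate 1 or ATG12-/- cell replicate 3, with adjusted p up to 0.0554. AC017002.3, at 0 in all 9 EV libraries, passed for ATG7-/- (adjusted p = 0.0101), which is the cell difference given above. That call was lost with a pseudocount of 0.25 and with a filter of 5 TPM, with adjusted p up to 0.128.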

How the data were processed

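RNA of EVs and cells was sequenced in 18 libraries, 3 per group. The authors deposited TPM per transcript; per the submitters' processing notes Salmon 0.14 and DESeq2 were used, and no source used here gives the genome build, the annotation or the strand setting. Of 203027 transcripts 202941 matched GENCODE 29 by identifier without version, and the 86 others held at most 0.0384% of a library. TPM were summed per gene. Each library was scaled by the median of ratios over genes that reach 1 TPM in all libraries of the fit, and log2(TPM + 1) was fitted with limma 3.58.1 (R 4.3.3, trend, no replicate block) on the 9 EV libraries, the 9 cell libraries or all 18, over genes that reach 1 TPM in 3 or more of them. p-values were adjusted by Benjamini-Hochberg over all genes tested, with a threshold of 0.05. They measure the spread between the labelled bioreps, which may be partly technical. To look for pairing, libraries of different groups were correlated on their log2 levels after each gene's group mean was subtracted. On these deviations no same-numbered pair correlated above 0.1 (-0.0336 to 0.0472 over all libraries). The main fit used no pairing. The labels do not say whether libraries of the same number share a culture, and these correlations cannot settle it. Words of 31 bases from the leading transcript of each lincRNA gene were compared with all transcripts of protein-coding genes.

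The members and gene lists were chosen with earlier results of these data known. The text names, in each comparison, up to 10 called members per direction with the largest fold change, groups that do not overlap and a higher group mean of 5 TPM or more, the 3 uncalled members with the smallest p, the 10 most abundant in EVs and in cells, list members and the genes at the limit of the rule, and prints some of these. XIST was counted but its levels are not printed. Alternatives were another pseudocount, other filters, no scaling, sample weights, the replicate block, no transcripts under 200 bases and leaving out each library.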

Additional observations from a re-analysis of the deposited data

Results flagged for a closer look

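The members below differed between a knockout and wild type in their EV-to-cell difference, by the interaction in the limma fit of all 18 libraries. In ATG7-/- the log2 interaction was 5.94 for AC009269.2, 5.40 for AL390763.1, -3.10 for AC017002.3, -1.45 for AL355075.3, 1.40 for AC021224.1, 1.97 for AL359382.1, -2.01 for AL353801.1, -1.43 for AC008736.1 and -1.78 for AC006115.1. In ATG12-/- it was -1.33 for LINC00273, -1.49 for AL355075.3, 5.04 for AC009269.2, 4.92 for AL390763.1, 1.97 for AL359382.1, -1.90 for AC006115.1 and 1.19 for AC021224.1. For AC009269.2, AL390763.1, AC017002.3, AL359382.1, AL353801.1, AC008736.1 and AC006115.1 at least 1 group was listed at 0 in all 3 libraries, so these sizes depend on the pseudocount of 1 TPM and are no fold changes.

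AL359382.1, AL353801.1, AC008736.1 and AC006115.1 were listed at 0 in all 9 EV libraries and rest on low cell values; each is a member only through the cell groups where it is high, so it had to differ and its call is no support. AL359382.1 had 4.03, 1.61 and 2.20 TPM in wild-type cells and 0 in all knockout cells. AL353801.1 had 2.04, 2.66 and 4.24 TPM in ATG7-/- cells and 1.77, 1.52 and 3.06 TPM in ATG12-/- cells, and 0 in wild-type cells. AC008736.1 had 1.13, 1.47 and 2.34 TPM in ATG7-/- cells and 0 in ATG12-/- and wild-type cells. AC006115.1 had 2.21, 1.85 and 2.96 TPM in ATG7-/- cells and 3.75, 2.83 and 2.01 TPM in ATG12-/- cells, and 0 in wild-type cells.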

How the results depend on the processing

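No named call changed direction. Of 60 named EV-to-cell calls 41 passed under every alternative, of 10 interaction calls 2 (AC009269.2 and AL390763.1 in ATG7-/-), and of 6 calls between knockout and wild type 0. The 41 include AC005332.3 in each genotype and AC017002.3 in ATG7-/-, which were at 0 in all EV libraries. They met the level through the cells alone and had to differ, so their passing is no support. Further calls of this kind among the 41 were not counted. The cause of each loss was not tested.

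The member counts between knockout and wild type are small and moved with most choices. For ATG7-/- EVs the count of 3 became 0 without the low-value filter, 0 with the replicate block, 1 among members with under 10% reversed words (chosen after seeing the data) and 0 to 1 with a library left out. For ATG12-/- EVs the count of 2 became 5 with a pseudocount of 0.25, 0 without the filter, 1 with a filter of 5 TPM, 1 with sample weights, 0 with the block, 1 under the limit on reversed words and 0 to 1 with a library left out. For ATG7-/- cells the count of 1 became 3 with the smaller pseudocount, 0 with the block, 3 without transcripts under 200 bases and 0 to 3 with a library left out. For ATG12-/- cells the count of 0 became 1 with the smaller pseudocount, 1 with sample weights and 0 to 2 with a library left out.

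Between EVs and cells the wild-type count of 722 became 385 with a filter of 5 TPM and 244 among members averaging at least 5 TPM, and lay between 528 and 613 with a library left out. In ATG7-/- the count of 322 became 144 among those members and 189 to 259 with a library left out, the lowest without replicate 1 of the ATG7-/- cells. In ATG12-/- the count of 288 became 144 among those members, 177 under the limit on reversed words and 142 to 217 with a library left out; without replicates 1, 2 and 3 of the ATG12-/- cells it was 142, 168 and 189. These limits leave fewer genes or libraries.

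The ATG7-/- interaction count of 9 became 4 with a filter of 5 TPM, 5 without scaling, 3 with sample weights, 5 among members averaging at least 5 TPM and 4 to 11 with a library left out. The ATG12-/- count of 7 became 1 with sample weights, 4 under the limit on reversed words and 3 to 9 with a library left out. Without replicates 1, 2 and 3 of the wild-type cells the counts were 5, 4 and 4 in ATG7-/- and 4, 3 and 3 in ATG12-/-, and without replicate 3 of the knockout's cells 4 and 3. With the replicate block the EV-to-cell counts were 293, 265 and 698 in ATG7-/-, ATG12-/- and wild type and the interaction counts 6 and 5.

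Without mitochondrial and small noncoding RNA the share of the members was 8.36% in ATG12-/- EVs and 4.55% in wild-type EVs, and 10.5%, 9.16% and 12.5% in ATG7-/-, ATG12-/- and wild-type cells. Without FP671120.3 and FP671120.4 it was 2.59%, 2.67% and 2.69% in ATG7-/-, ATG12-/- and wild-type EVs. With a library left out the EV means ranged over 4.63% to 6.55%, 5.97% to 7.06% and 3.02% to 3.33%, and the cell means over 5.77% to 6.07%, 4.82% to 5.78% and 6.48% to 7.35%. Depth is unknown, so a gene listed at 0 is only listed at 0.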
